A study of Homo sapiens
Mus musculus with 17 samples.

Results

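Mast cell transcripts of the mouse host were followed in xenograft tumours of VM-CUB-1, an established line of human bladder cancer cells described by the study as nintedanib-resistant. The members are 7 rows of the mouse expression table, chosen by symbol: Tpsb2, Cpa3, Mcpt4, Cma1, Kit, Hdc and Ms4a2, of 23337 mouse rows. Of these 7, 6 passed the filter on low values and Ms4a2 did not. The 17 tumours grew in Hsd:Athymic Nude-Foxn1nu mice, a strain without a functional thymus, so all groups share a host that lacks thymus-derived T cells but keeps myeloid cells, among them mast cells. All tumours received 7 days of treatment. The vehicle group (n = 4) was given 0.5% methylcellulose with 0.1% Tween80, the alpelisib group (n = 4) BYL719 at 25 mg/kg, the nintedanib group (n = 5) nintedanib at 40 mg/kg, and the combination group (n = 4) both drugs at these doses. Alpelisib inhibits the alpha isoform of PI3 kinase, and nintedanib inhibits several receptor tyrosine kinases, among them the VEGF, FGF and PDGF receptors. By their titles, 3 of the nintedanib tumours were responders and 2 were non-responders; the series' design text gives these numbers the other way round, and the titles were followed here. The ages of the mice are not given in the sources used here, and no label tells whether each tumour of a group had its own mouse; p-values therefore measure only the spread between these samples.

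Mast cells are tissue-resident cells of myeloid origin that are common in skin and connective tissue and gather at the border of many tumours. They depend on stem cell factor acting on the receptor Kit, they store histamine and proteases (tryptases, chymases and carboxypeptidase A3) in granules, and they release them when IgE bound to its high-affinity receptor is crosslinked. Transcripts of the granule proteases are largely restricted to mast cells, whereas Kit is also made by melanocytes, blood progenitors and some other cells.

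The tables hold the authors' normalized counts, which are read counts per gene divided by 1 size factor per library. Recovered read totals were 7429753 to 25654879 per library for human genes (median 20312801) and 2271764 to 7438823 for mouse genes (median 5084126). The ribosomal repeat gene Rn45s and Lars2 took between 1.73% and 72.9% of a library's mouse reads, which left 1376733 to 6383541 reads for the other mouse genes. The members' reads summed over the 17 libraries were 544 for Tpsb2, 262 for Cpa3, 866 for Mcpt4, 733 for Cma1, 1301 for Kit, 1555 for Hdc and 3 for Ms4a2. Counting error is therefore large for single tumours, and 3 reads corresponded to a normalized count between 1.37 (vehicle 4) and 6.89 (vehicle 3). Tpsb2 and Tpsab1 are related tryptase genes, and Mcpt4, Cma1, Mcpt1 and Mcpt2 are related chymases. How reads were divided within each family was not tested and is uncertain. In whole tumours, fewer cells of a type and less RNA per cell cannot be told apart.

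Granule proteases had higher means in both groups that received nintedanib. The summed normalized count of Tpsb2, Cpa3, Mcpt4 and Cma1 averaged 74.5 ± 66.0 (SD, n = 4) under vehicle, 71.1 ± 22.4 (n = 4) under alpelisib, 179 ± 62.9 (n = 5) under nintedanib and 156 ± 108 (n = 4) under the combination. It ranged from 4.44 in vehicle 2, on 7 reads, to 284 in nintedanib responder 3, on 364 reads. The ranges of all 4 groups overlapped: vehicle 4 reached 163, and combination tumours 1 and 4 stood at 66.9 and 63.6.

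**Figure D1:**
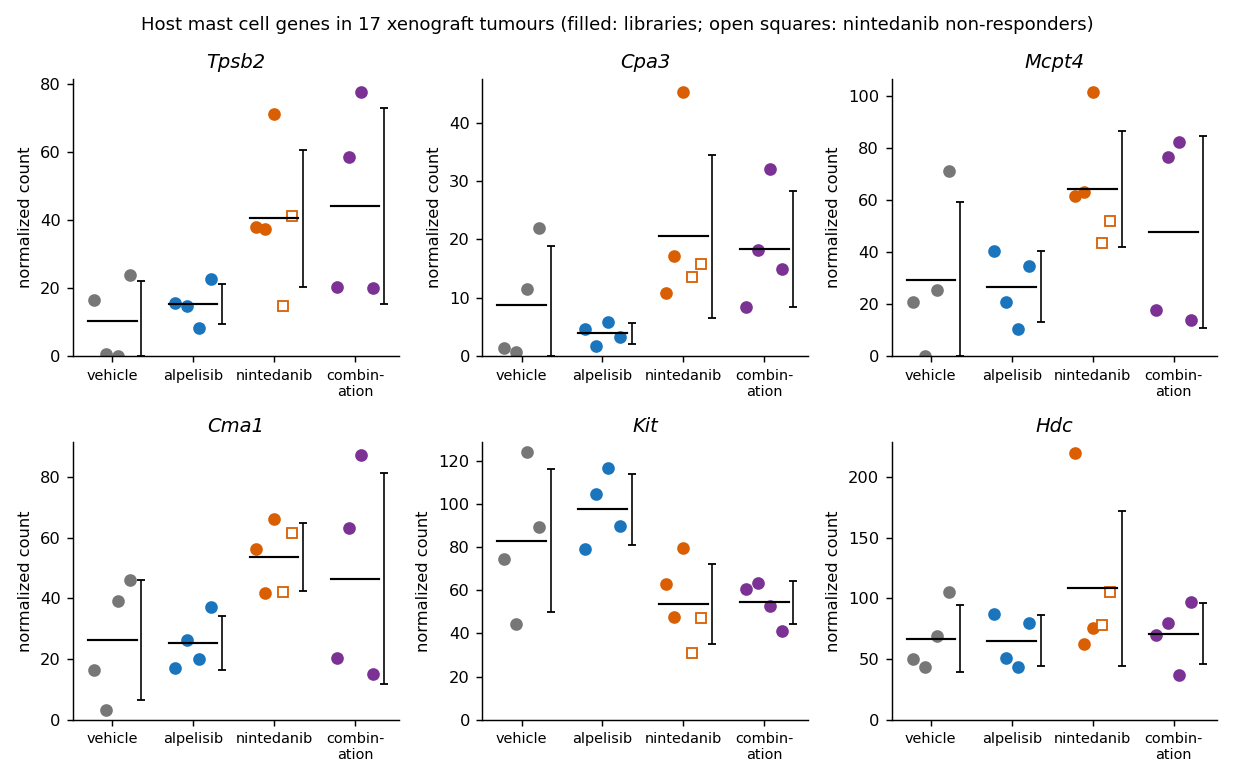
Normalized count (vertical axis) of the 6 mast cell genes that passed the filter in each tumour, by treatment group; filled circles are single tumours, open squares the 2 nintedanib non-responders, horizontal lines group means and vertical bars the SD, which is drawn no lower than 0. The protease means are higher in the nintedanib and combination groups, as for Tpsb2 with 40.4 and 44.1 against 10.2 under vehicle, whereas the Kit means are lower there, and single tumours of the groups overlap in most panels.

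Tpsb2 encodes a tryptase, a trypsin-like protease of connective tissue mast cell granules. Its normalized counts were 16.5, 0.635, 0 and 23.7 in vehicle tumours 1 to 4 and 15.6, 14.9, 8.25 and 22.7 in alpelisib tumours 1 to 4. They were 37.9, 37.3 and 71.0 in the 3 nintedanib responders, 14.8 and 41.1 in the 2 non-responders, and 20.4, 58.3, 77.5 and 19.9 in combination tumours 1 to 4. Vehicle 3 had no read, which at its depth allows a value of up to 6.89, and vehicle 2 had 1 read. Of the 9 nintedanib-exposed tumours (nintedanib alone or combined), 6 lay above all 8 unexposed ones, and the other 3 fell within the unexposed range. The means were 42.0 ± 22.6 (SD, n = 9) in exposed and 12.8 ± 9.06 (SD, n = 8) in unexposed tumours. In the order of group means, combination came first, then nintedanib, alpelisib and vehicle, and each pair of neighbours overlapped. Tests were made with limma on log2(normalized count + 1) over 11831 mouse genes with a mean normalized count of at least 10, and a call needed a Benjamini-Hochberg adjusted p under 0.05. The pseudocount of 1 pulls low values together, while on a log scale 1 tumour at or near 0 weighs on its group's mean. A log2 difference can therefore lie away from the ratio of the group means: nintedanib against vehicle gave Tpsb2 a log2 difference of 2.85 and a ratio of means of 3.96. On the log2 scale the nintedanib main effect, which averages the effect of nintedanib without and with alpelisib, was 2.07 ± 0.56 (SE; 95% confidence interval 0.89 to 3.26; adjusted p = 0.117 in limma). The difference of the combination from vehicle was 2.88 ± 0.82 (SE, adjusted p = 0.094 in limma), and that of alpelisib from vehicle was 1.59 ± 0.82 (adjusted p = 0.49).

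Cpa3 encodes carboxypeptidase A3, a metalloprotease stored beside the chymases. Vehicle tumours 1 to 4 gave normalized counts of 1.38, 0.635, 11.5 and 21.9, and alpelisib tumours 1 to 4 gave 4.67, 1.75, 5.90 and 3.24. The values were 10.8, 17.2 and 45.2 in nintedanib responders, 13.6 and 15.7 in non-responders, and 8.36, 18.1, 32.0 and 14.96 in combination tumours. All 4 combination tumours lay above all 4 alpelisib tumours, and vehicle 4 lay above 7 of the 9 exposed tumours. Alpelisib values rest on 2 to 5 reads each and the Cpa3 mean over unexposed tumours was 6.37 ± 7.16 (SD, n = 8), so the gene passed the filter through the exposed tumours, whose mean was 19.6 ± 11.7 (SD, n = 9). A Cpa3 test in the filtered table thus depends on the group where it is high, so its values are given from the fit without an expression filter. There the nintedanib main effect was 1.82 ± 0.50 on the log2 scale (SE; interval 0.76 to 2.88; adjusted p = 0.198 in limma), and the difference of the combination from alpelisib was 1.92 ± 0.73 (SE, adjusted p = 0.67).

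Mcpt4 encodes a chymase of connective tissue mast cells. Its normalized counts were 20.7, 0, 25.3 and 71.1 in vehicle tumours and 40.5, 21.0, 10.6 and 34.8 in alpelisib tumours. Nintedanib responders had 61.6, 63.1 and 101, non-responders had 43.3 and 52.0, and combination tumours had 17.7, 76.4, 82.4 and 13.7. The combination group was thus split, with tumours 2 and 3 above every vehicle value and tumours 1 and 4 within the vehicle range. Rn45s and Lars2 took 42.1% and 60.1% of mouse reads in combination tumours 1 and 4, and 13.7% in each of combination tumours 2 and 3. Whether this bears on the split was not tested. Vehicle 2 had no read, which allows a value of up to 1.90. Exposed tumours averaged 56.9 ± 28.9 (SD, n = 9) and unexposed tumours 28.0 ± 21.6 (SD, n = 8), and the nintedanib main effect was 1.35 ± 0.63 (SE, log2 scale; adjusted p = 0.552 in limma). Without vehicle 2, the nintedanib main effect on Mcpt4 was 0.71, and the difference of nintedanib from vehicle was 0.86 in place of 2.14.

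Cma1, which encodes mast cell protease 5, followed the pattern of Mcpt4 closely. Vehicle tumours had normalized counts of 16.5, 3.17, 39.0 and 46.1, and alpelisib tumours had 17.1, 26.2, 20.05 and 37.2. Nintedanib responders had 56.2, 41.9 and 66.3, non-responders 42.1 and 61.7, and combination tumours 20.4, 63.4, 87.3 and 14.96. The nintedanib group was narrow, at 53.6 ± 11.2 (SD, n = 5), with 3 of 5 tumours above every vehicle value. Combination tumours 1 and 4, the richest of their group in Rn45s and Lars2 reads, again lay low. The nintedanib main effect was 1.03 ± 0.43 (SE; interval 0.11 to 1.94; adjusted p = 0.466 in limma), and 0.66 without vehicle 2.

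Hdc encodes histidine decarboxylase, the enzyme that makes histamine. Its normalized counts were 49.6, 43.2, 68.9 and 105 in vehicle tumours and 87.2, 50.7, 43.6 and 79.3 in alpelisib tumours. Nintedanib responders had 219, 62.5 and 75.6, non-responders 77.9 and 105, and combination tumours 69.7, 79.5, 36.9 and 97.2. Responder 1, on 324 reads, lay above all 16 other tumours, and the other tumours of the 4 groups covered a common range. The nintedanib main effect was 0.36 ± 0.27 (SE; interval -0.21 to 0.92; adjusted p = 0.77 in limma).

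Kit encodes the receptor for stem cell factor, and its means ran opposite to those of the proteases. Its normalized counts were 74.4, 44.4, 124 and 89.4 in vehicle tumours 1 to 4 and 79.4, 105, 117 and 89.8 in alpelisib tumours. Nintedanib responders had 63.0, 47.6 and 79.5, non-responders 30.9 and 47.2, and combination tumours 60.4, 63.4, 52.9 and 41.1. All 9 exposed tumours lay below the unexposed mean, 2 of them below every unexposed tumour, and 5 of 8 unexposed tumours lay above every exposed one. The group means were 97.7 ± 16.5 (SD, n = 4) under alpelisib, 83.1 ± 33.1 (n = 4) under vehicle, 54.4 ± 9.91 (n = 4) under the combination and 53.7 ± 18.4 (n = 5) under nintedanib. Neighbours in this order overlapped, but the 4 combination tumours lay below all 4 alpelisib tumours, a difference of -0.84 ± 0.28 on the log2 scale (SE, adjusted p = 0.651 in limma). The nintedanib main effect was -0.72 ± 0.19 (SE; interval -1.12 to -0.31; adjusted p = 0.116 in limma), and it was -0.85 (adjusted p = 0.0381) without vehicle 2, whose Kit value was the lowest of the unexposed tumours.

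Ms4a2 encodes the beta chain of the high-affinity IgE receptor. It had 3 reads in all: a normalized count of 0.677 in nintedanib responder 1, 1.56 in responder 3 and 0 in the other 15 tumours. In those 15, a count of 0 allows a normalized count of up to 1.37 in vehicle 4 and up to 6.89 in vehicle 3. At this depth, differences in Ms4a2 between the groups were not detectable.

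**Figure D2:**
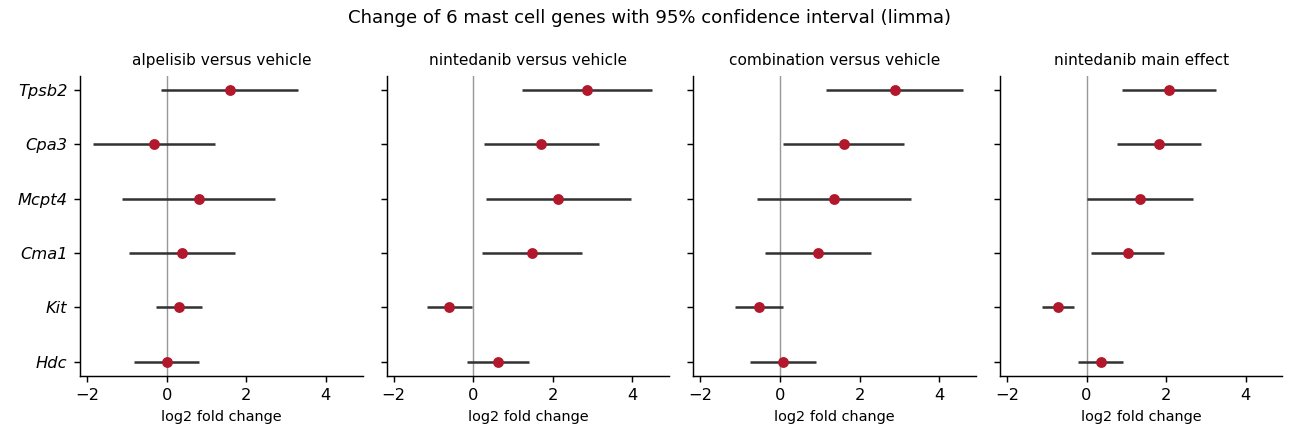
Log2 fold change (horizontal axis, log2 of normalized count + 1) of the 6 tested mast cell genes in 4 comparisons; points are limma estimates and bars 95% confidence intervals. In the nintedanib main effect the 4 proteases lie to the right, from 1.03 for Cma1 to 2.07 for Tpsb2, and Kit lies to the left at -0.72.

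For nintedanib alone against vehicle, the question is what the kinase inhibitor does to host transcripts. Tpsb2, Cpa3, Mcpt4 and Cma1 had positive differences of 2.85, 1.71, 2.14 and 1.48 on the log2 scale, Hdc one of 0.62, and Kit one of -0.60. Without vehicle 2, which had the lowest protease sum, these differences were 2.30, 1.11, 0.86 and 0.74 for the 4 proteases and -0.86 for Kit. No member passed the threshold (0 of 6, background 0.152% of tested genes, adjusted p from 0.236 to 0.6 in limma), and all 6 overlapped between the groups (background 0.93% of genes with all nintedanib tumours above, 1.52% below). At an unadjusted p under 0.05, 5 of 6 members passed (background 8.47%), of which 4 were higher (background 4.88%) and Kit was lower (background 3.59%); leaving aside Cpa3, it was 4 of 5. The count of 5 was 2 without vehicle 2 and 3 without vehicle 1 or responder 3. In edgeR and DESeq2 on the recovered reads it was also 2 in each.

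For the combination against vehicle, Tpsb2 (2.88) and Cpa3 (1.60) had the largest differences, Mcpt4 stood at 1.36, Cma1 at 0.95, Hdc at 0.09 and Kit at -0.53. Without vehicle 2 the Mcpt4 and Cma1 differences were 0.08 and 0.22, those of Tpsb2 and Cpa3 were 2.33 and 0.99, Kit stood at -0.79 and Hdc at -0.09. None of the 6 passed the threshold (background 0.778%), 2 passed at an unadjusted p under 0.05 (background 16.5%), both higher (background 9.67%; 1 of 5 leaving aside Cpa3), and 0 were free of overlap (background 4.89% above, 4.74% below). Against alpelisib alone the combination had more Cpa3 in every tumour and less Kit in every tumour, the only 2 members free of overlap in any of 5 comparisons of treatment groups. In that comparison, 1.62% of tested genes had all combination tumours above all alpelisib tumours and 2.14% had them below. No member passed the threshold there (background 0.00845%), and Cpa3 and Kit passed at an unadjusted p under 0.05 (background 6.18%, with 2.53% higher and 3.65% lower), which leaves Kit alone when Cpa3 is set aside. The count of 2 for the combination against vehicle was 4 without vehicle 4, and 1 without vehicle 1 or without combination 2, 3 or 4; the count of 2 against alpelisib was 1 without combination 3.

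Alpelisib alone left all 6 members within the spread of the vehicle tumours. The differences from vehicle were -0.32 for Cpa3, -0.00 for Hdc, 0.31 for Kit, 0.38 for Cma1, 0.80 for Mcpt4 and 1.59 for Tpsb2. For Mcpt4 and Cma1 this sign goes against the group means, which were lower under alpelisib (26.7 against 29.3, and 25.2 against 26.2), and without vehicle 2 the differences were -0.48 and -0.35. The Tpsb2 means had a ratio of 1.5, and its difference was 1.03 without vehicle 2. No member passed the threshold (background 0%) or an unadjusted p under 0.05 (background 10.6%), and 0 were free of overlap (background 4.18% above, 3.03% below), although these intervals are wide, from -1.13 to 2.73 for Mcpt4. In the alpelisib main effect, 0 of 6 passed (background 0.186%; at an unadjusted p under 0.05 also 0, background 12.8%), and the Kit estimate was 0.19 with an interval of -0.22 to 0.60.

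Over both arms together, with 9 exposed and 8 unexposed tumours, the nintedanib main effect was positive for 5 of 6 members and negative for Kit. No member separated all exposed from all unexposed tumours (0 of 6, background 0.0169% above and 0.169% below). With the adjusted threshold 0 of 6 were called (background 0.6%), and at an unadjusted p under 0.05 the count was 5 (background 8.96%), with the 4 proteases higher (background 4.87%) and Kit lower (background 4.09%). Cpa3 is in that count although it passed the filter through the exposed tumours; leaving it aside, 4 of 5 passed, Tpsb2, Mcpt4 and Cma1 higher and Kit lower. DESeq2 on recovered reads called Tpsb2 (1.68, adjusted p = 0.029) and Kit (-0.74, adjusted p = 0.025), and edgeR called neither (adjusted p = 0.152 and 0.0893). Without vehicle 4, which had the most protease reads of the unexposed tumours, limma called Tpsb2 (2.45, adjusted p = 0.0379). Cpa3 also passed there (2.15, adjusted p = 0.0407), with the same dependence on the filter. Over all settings tried, adjusted p ranged from 0.029 to 0.303 for Tpsb2, from 0.0407 to 0.279 for Cpa3 and from 0.025 to 0.552 for Kit. Without the 4 libraries richest in Rn45s and Lars2 reads the estimates for these 3 genes were 1.98, 2.36 and -0.51. The count of 5 at an unadjusted p under 0.05 was 3 without vehicle 2, alpelisib 3, combination 2 or combination 3.

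Adding alpelisib to nintedanib gave no call among the members (0 of 6, background 0%; at an unadjusted p under 0.05 also 0, background 7.02%; free of overlap 0, background 0.82% above and 1.41% below). The differences of the combination from nintedanib were 0.03 for Tpsb2, -0.11 for Cpa3, -0.78 for Mcpt4, -0.52 for Cma1, 0.07 for Kit and -0.53 for Hdc. The interval for Kit, -0.49 to 0.63, was the narrowest, and that for Mcpt4 ran from -2.61 to 1.05. The departure from additivity, which asks whether both drugs together differ from the sum of their single effects, also gave no call (0 of 6, background 0%; 0 at an unadjusted p under 0.05, background 4.83%). Its estimates ran from -1.58 for Mcpt4 to 0.21 for Cpa3. Without vehicle 2 they were -0.30 for Mcpt4, -0.17 for Cma1, -1.003 for Tpsb2 and 0.82 for Cpa3.

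Between nintedanib responders and non-responders, 0 of 6 members passed (background 0%; 0 at an unadjusted p under 0.05, background 2.05%). Kit had the smallest p, with 63.4 ± 16.0 (SD, n = 3) in responders and 39.0 ± 11.5 (SD, n = 2) in non-responders, a log2 difference of 0.68 ± 0.36 (SE, adjusted p = 1 in limma). With 3 tumours against 2, the Tpsb2 interval ran from -1.34 to 3.10.

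**Figure D3:**
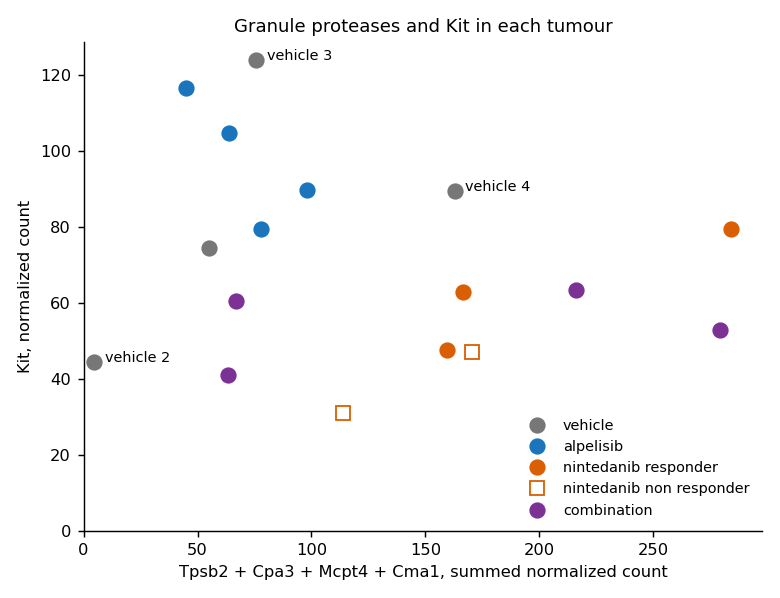
Normalized count of Kit (vertical axis) against the summed normalized count of Tpsb2, Cpa3, Mcpt4 and Cma1 (horizontal axis) in each of 17 tumours, coloured by group, with the 2 nintedanib non-responders as open squares and 3 vehicle tumours named. Unexposed tumours lie mostly at the upper left and exposed tumours lower, and vehicle 2 lies apart with a sum of 4.44 and a Kit value of 44.4.

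Most pairs of proteases were correlated from tumour to tumour, 5 of 6 with an adjusted permutation p under 0.05. The share of all tested gene pairs past this threshold was not determined. Tumours were permuted across treatment groups, so these p-values also take in differences between group means. Over the 17 tumours, Mcpt4 and Cma1 had a Pearson r of 0.925 and a Spearman rho of 0.909 on log2 values (permutation p = 1e-05, the smallest that 100000 resamples can give; adjusted over 21 pairs, 0.00021). Cpa3 had r = 0.772 with Cma1 (rho = 0.794, permutation p = 0.00016, adjusted 0.00168) and r = 0.736 with Mcpt4 (rho = 0.801, permutation p = 0.00029, adjusted 0.00203). Tpsb2 had r = 0.734 with Mcpt4 (rho = 0.799, permutation p = 0.00239, adjusted 0.0125) and r = 0.650 with Cma1 (rho = 0.760, permutation p = 0.00788, adjusted 0.0331). Tpsb2 and Cpa3 had r = 0.559 (rho = 0.708, permutation p = 0.0189, adjusted 0.0663). All 6 pairs had an r between 0.624 and 0.851 without the 2 tumours farthest from the median of the first gene, vehicle 2 being 1 of the 2 in each case. With group means removed r was 0.904 for Mcpt4 with Cma1, 0.720 and 0.702 for Cpa3 with Cma1 and Mcpt4, and 0.646, 0.504 and 0.284 for Tpsb2 with Mcpt4, Cma1 and Cpa3. With vehicle 2 left out as well, an alternative added after seeing the data, these were 0.801, 0.564, 0.531, 0.596, 0.334 and 0.080.

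Kit had r = 0.065 with Cma1 (rho = 0.0049, permutation p = 0.81, adjusted 0.81) and r = -0.250 with Tpsb2 (rho = -0.196, permutation p = 0.335, adjusted 0.439) over all 17 tumours. Within groups, with the group means removed, r was 0.717 with Cma1, 0.577 with Mcpt4, 0.572 with Cpa3 and 0.129 with Tpsb2, given without a test. Without vehicle 2, low in Kit and in all 4 proteases, these values were 0.474, 0.089, 0.339 and -0.203. The relation of Mcpt4 to Kit within groups thus rested on vehicle 2, and among the 4 alpelisib tumours Mcpt4 and Kit ran in opposite order. Without vehicle 2 and combination 4, the pooled r of Cma1 with Kit was -0.372. Hdc followed the other members loosely, with r = 0.333 to the mean of the other 5, against 0.919 for Mcpt4 and -0.106 for Kit.

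**Figure D4:**
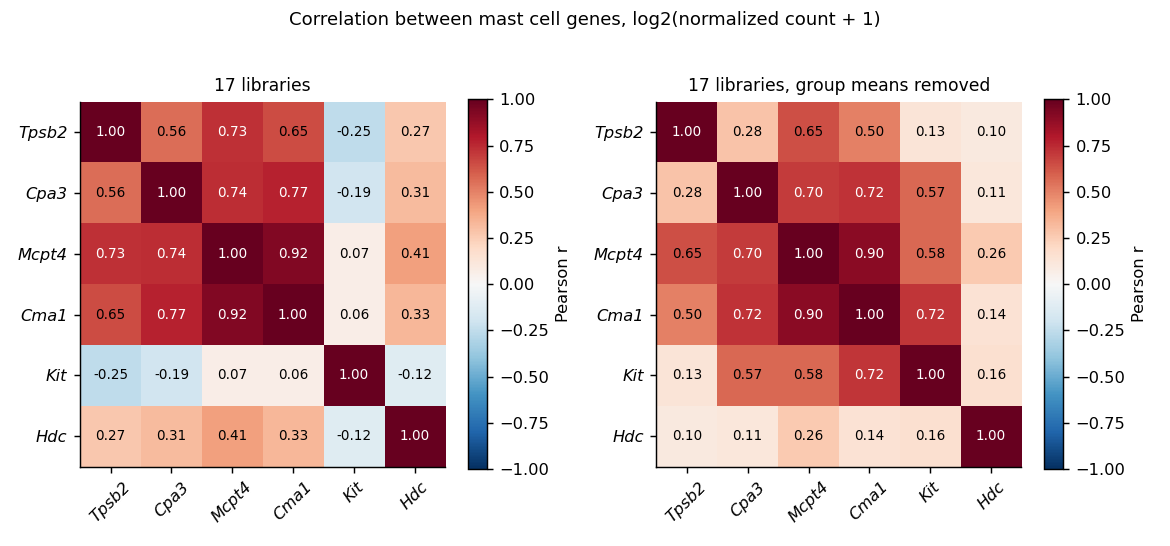
Pearson r between the 6 tested mast cell genes on log2(normalized count + 1), over 17 tumours on the left and with group means removed on the right; both axes list the genes and the colour scale runs from -1 to 1. The 4 proteases form a block with r from 0.56 to 0.92 on the left, and the Kit entries with Cpa3, Mcpt4 and Cma1 go from -0.19, 0.07 and 0.06 on the left to 0.57, 0.58 and 0.72 on the right, values that include vehicle 2.

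Among the other tested genes, the 10 whose levels were most like the mean standardised level of the 6 members, by Pearson r over 17 tumours, were Tpsab1 (0.863), Mcoln2 (0.804), Tspan5 (0.782), Irf4 (0.763), Retnla (0.738), Hal (0.735), F7 (0.706), Mcpt2 (0.679), Got1 (0.677) and Ephx1 (0.676). Tpsab1 is the sister tryptase of Tpsb2, Mcpt2 a chymase of mucosal mast cells, Irf4 a transcription factor of lymphoid and myeloid cells and Retnla a secreted protein of alternatively activated macrophages. The normalized count of Tpsab1 averaged 10.99 ± 11.1 (SD, n = 4) under vehicle, 23.9 ± 14.97 (n = 4) under alpelisib, 54.5 ± 42.1 (n = 5) under nintedanib and 38.8 ± 17.5 (n = 4) under the combination. Its nintedanib main effect was 1.57 ± 0.49 (SE, log2 scale, adjusted p = 0.201 in limma). Both tryptases thus had higher means with nintedanib, each with overlap between groups. How reads were divided between these related genes was not tested, so Tpsab1 is not counted here as a separate result from Tpsb2. Retnla averaged 507 ± 802 (SD, n = 9) in exposed and 77.4 ± 70.1 (n = 8) in unexposed tumours, a main effect of 2.49 ± 0.66 (SE, adjusted p = 0.106 in limma).

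The 5 genes most like Kit were C230096C10Rik (r = 0.821), Angpt2 (0.803), Cnst (0.784), Rasip1 (0.784) and Zfp28 (0.783). Angpt2 encodes angiopoietin 2, a vessel-destabilising ligand of the Tie2 receptor, and Rasip1 a protein needed for endothelial tube formation. The Angpt2 mean was 92.8 ± 25.3 (SD, n = 9) in exposed and 274 ± 99.4 (SD, n = 8) in unexposed tumours, and its main effect of -1.50 ± 0.24 (SE, log2 scale) passed the threshold (adjusted p = 0.00521 in limma). Rasip1 averaged 65.1 ± 14.2 and 96.3 ± 17.9 in the same tumours, with a main effect of -0.57 ± 0.16 (SE, adjusted p = 0.132 in limma). With group means removed, the r of Kit with Angpt2 was 0.545 and that with C230096C10Rik 0.804. None of the 10 genes most like the 6 members is among the 5 most like Kit.

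A list of 26 other mast cell genes, of which 25 were in the table and 17 passed the filter, was described beside the members. Gzmb of this list is also among the natural killer markers used here. Mean normalized counts over all tumours were 1027 for Fcer1g, 565 for Srgn and 309 for Alox5ap, against 13.3 to 43.3 for the 4 proteases. Which cells the reads of this list came from was not tested, so its counts are not specific to mast cells. In the nintedanib main effect 13 of 17 had a positive estimate, 0 passed the threshold, and 4 were higher and 1 lower at an unadjusted p under 0.05, beside 0.6% called, 4.87% higher and 4.09% lower over all tested genes; the median was 0.35, against 0.0018 over all tested genes. Alox5ap, which encodes the protein that presents arachidonic acid to 5-lipoxygenase, had 0.86 ± 0.20 (SE, log2 scale; adjusted p = 0.0629 in limma). Ltc4s, leukotriene C4 synthase, differed by 1.36 ± 0.43 between combination and vehicle (SE, adjusted p = 0.119). Gata2, a transcription factor of mast cell and other blood and vessel cells, differed by -0.83 ± 0.30 in the same comparison (SE, adjusted p = 0.166). Several defining genes were near 0: Fcer1a, the IgE-binding chain of the receptor, had 24 reads in all, and the mast cell receptors Mrgprb1 and Mrgprb2 had 44 and 14. The mucosal chymases had their highest means under nintedanib alone: Mcpt2 averaged 27.4 ± 27.5 (SD, n = 5) there and 10.7 ± 5.29 (n = 4) under the combination, and Mcpt1, named here after its values were seen, averaged 32.4 ± 27.5 (n = 5) and 8.67 ± 2.96 (n = 4). Neither difference between these 2 groups passed the threshold (Mcpt2 -0.51, adjusted p = 0.957, and Mcpt1 -1.09, adjusted p = 0.878, in limma). Mcpt2 passed the filter through the nintedanib group, as its mean was 7.48 under vehicle and 7.98 under alpelisib. Its test, and its place among the 17 tested genes of this list, thus depend on the group where it is high.

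Ligands and signalling genes for mast cell growth, recruitment and activation formed a list of 23, of which 16 passed the filter. None of the 16 passed the threshold in the nintedanib main effect, where 13 estimates were positive and 1 was higher at an unadjusted p under 0.05 (background 4.87%). Kitl, the mouse gene for stem cell factor, averaged 102 ± 50.2 (SD, n = 4) under vehicle, 60.5 ± 32.6 (n = 4) under alpelisib, 47.3 ± 16.7 (n = 5) under nintedanib and 56.8 ± 21.1 (n = 4) under the combination. Its difference of nintedanib from vehicle was -1.04 ± 0.42 (SE, adjusted p = 0.561 in limma). The tumour's own KITLG had normalized counts of 280 ± 109 (SD, n = 4) under vehicle and 267 ± 110 (n = 5) under nintedanib, on the separate scale of the human table. Btk is a kinase downstream of the IgE receptor in mast cells and of the antigen receptor in B cells. It was the only gene of this list that passed the threshold in any of the 9 contrasts. Its alpelisib main effect was -0.89 ± 0.16 (SE, adjusted p = 0.0371 in limma; background 0.186% of tested genes called). Of 27 other settings, 15 ended this call for Btk (highest adjusted p 0.121), 12 of them by leaving out 1 library, and the estimate stayed between -1.08 and -0.83. Its normalized counts averaged 89.7 ± 14.8 (SD, n = 4) under vehicle and 39.2 ± 10.6 (n = 4) under alpelisib. They averaged 82.1 ± 22.2 (n = 5) under nintedanib and 53.2 ± 5.17 (n = 4) under the combination. Of the macrophage markers, Emr1 and Itgam were also lower under alpelisib than under vehicle. Emr1 averaged 410 ± 63.5 and 868 ± 142 (SD, n = 4 each). Itgam averaged 284 ± 102 and 531 ± 121 in the same groups. Their differences were -1.08 and -0.93 on the log2 scale (adjusted p = 0.183 and 0.256 in limma). Of 10 macrophage markers, 6 had a negative and 4 a positive estimate there. The cells behind the Btk difference were not tested. Spry1, a feedback inhibitor of receptor kinase signalling, had an alpelisib main effect of 0.97 ± 0.22 (SE, adjusted p = 0.0826), and Lyn, a kinase that phosphorylates the IgE receptor, one of -0.32 ± 0.12 (SE, adjusted p = 0.287).

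Markers of other host cells also differed with nintedanib. All 10 endothelial markers had a negative nintedanib main effect, 4 of them past the threshold: Cldn5 at -1.84, Cdh5 at -1.31, Tie1 at -1.11 and Pecam1 at -0.92 (adjusted p = 0.00934, 0.0133, 0.0111 and 0.0225 in limma; background 0.6% called in either direction). Without the 4 libraries richest in Rn45s and Lars2 reads none of these 4, nor Angpt2, passed (adjusted p from 0.161 for Cldn5 to 0.331 for Pecam1), while the estimates were -1.61 for Cldn5, -1.05 for Cdh5, -0.92 for Tie1, -0.71 for Pecam1 and -1.26 for Angpt2. Of 27 other settings this was the only one that ended the calls for Cldn5, Cdh5, Tie1 and Angpt2. For Pecam1, 6 ended the call: this one, the replicate block, and leaving out alpelisib 2, 3 or 4 or combination 4. In the last 5 the adjusted p in limma ran from 0.0533 to 0.0655. The summed normalized count of these 10 ran from 954 to 2030 in exposed and from 1686 to 4368 in unexposed tumours. All 10 macrophage markers had a positive main effect, 0 past the threshold and 6 at an unadjusted p under 0.05 (background 4.87% higher). For nintedanib against vehicle, 7 were positive and 3 negative. There 0 were higher and 1 lower at an unadjusted p under 0.05 (background 4.88% higher, 3.59% lower). For the combination against alpelisib all 10 were positive, with 5 higher at an unadjusted p under 0.05 (background 2.53% higher). The macrophage sum ran from 13220 to 30690 in exposed and from 11971 to 20518 in unexposed tumours. All 10 fibroblast markers also had a positive main effect, with 0 past the threshold and a sum of 38908 to 109680 against 26828 to 103341. The part of these cell types in the Kit and protease differences was not tested.

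Melanocytes and basophils share genes with mast cells, and their markers were low. Of 8 melanocyte markers only Tyr passed the filter. The summed count of the 8 was 9.90 to 36.3 in exposed and 16.5 to 52.4 in unexposed tumours; Mlana had reads in 3 and Dct in 4 of the 17 tumours. Of 6 basophil markers only Itga2b passed, and their sum was 13.8 to 27.3 in exposed and 4.67 to 21.0 in unexposed tumours; Mcpt8, the defining basophil protease, had a mean of 2.34 ± 2.68 (SD, n = 9) and 1.73 ± 1.499 (SD, n = 8). Adipocyte markers, of which 7 of 10 passed the filter, summed to 128 to 4315 in exposed and 277 to 936 in unexposed tumours. All 7 main effects of nintedanib were positive, with 0 past the threshold. The 2 non-responders had sums of 3691 and 4315, against 464 to 939 in responders and 128 to 1049 in combination tumours. For the combination against vehicle all 7 estimates were negative. All 7 were lower in responders than in non-responders at an unadjusted p under 0.05 (background 0.769% lower). Retn passed the filter through the nintedanib group, with a mean of 55.1 there and 6.71 under vehicle. Adipoq and Plin4 also passed only with the nintedanib group included. Adipoq averaged 113 there, and 22.8, 0.295 and 4.77 under vehicle, alpelisib and the combination. Plin4 averaged 42.6 there, and 11.8, 8.20 and 4.57 in the same order. The tests of Retn, Adipoq and Plin4, and their part in these counts, thus depend on the group where they are high. The 12 skeletal muscle markers summed to 798 to 45730 in exposed and 835 to 14451 in unexposed tumours. Their main effects of nintedanib were positive for 2 and negative for 10, with 0 past the threshold. Of natural killer markers 7 of 8 had a positive main effect and of neutrophil and eosinophil markers 2 of 3, with 0 past the threshold in both. For nintedanib against vehicle all 8 natural killer estimates were positive, whereas for the combination against vehicle 7 of 8 were negative. For the combination against nintedanib all 8 were negative. Klrb1c, Prf1 and Eomes passed the filter only with the nintedanib group included, where they averaged 17.8, 18.6 and 23.2. Their means were 9.17, 17.2 and 16.2 under vehicle, 10.96, 2.57 and 3.47 under alpelisib, and 9.21, 4.52 and 5.13 under the combination. Their part in these counts thus depends on the group where they are high. The summed count of the 8 ran from 96.4 to 1197 under nintedanib.

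**Figure D5:**
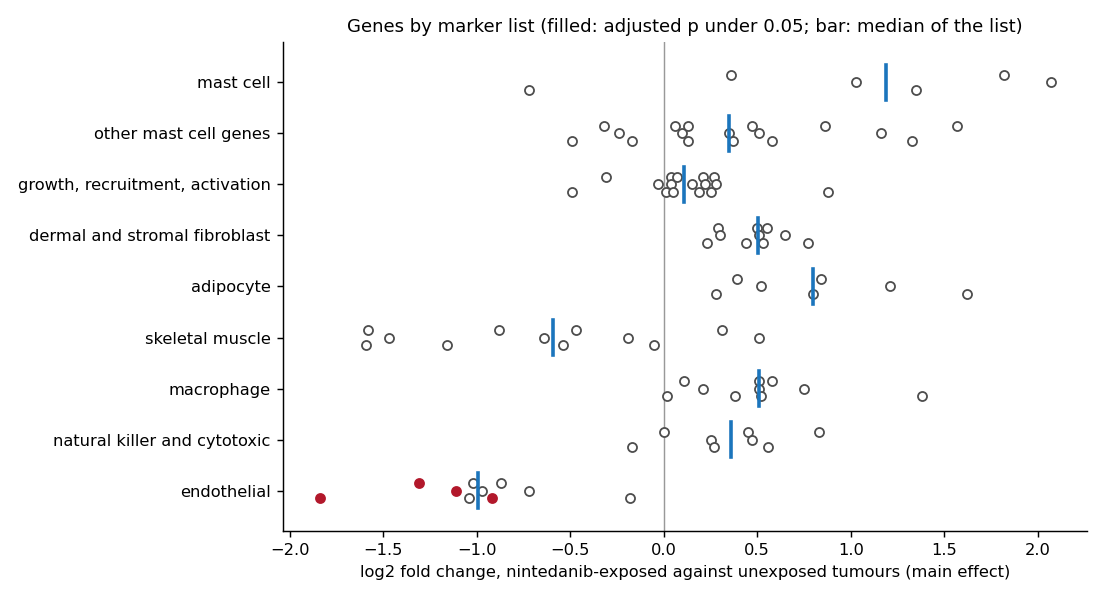
Nintedanib main effect (horizontal axis, log2 fold change) of every tested gene of the mast cell set and of 8 marker lists; each point is a gene, filled where the adjusted p is under 0.05, and the bar is the list's median. Endothelial genes lie to the left with 4 filled points and a median of -0.99, and the 6 mast cell genes spread from -0.72 (Kit) to 2.07 (Tpsb2) with none filled.

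Reads were mapped to each genome separately, and the human genes of the same names were set beside the members. Over the 17 tumours, the human table held 2 reads for TPSB2, 8 for CPA3, 13 for CMA1 and 10 for HDC, against 544, 262, 733 and 1555 for the mouse genes. Human KIT had 169 reads against 1301 for mouse Kit, and the mouse reads were more numerous in all 17 tumours. MS4A2 was the exception, with 64 human and 3 mouse reads. How reads that fit both genomes were treated is not given in the sources used here.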

How the data were processed

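RNA from 17 xenograft tumours was sequenced as polyA libraries (TruSeq RNA v2, paired-end NextSeq500), per the labels' protocols. Bowtie, TopHat and DESeq2, without versions, and the builds hg19 and mm10 are named in the submitters' processing notes; whether counting used strand is not given in the sources used here. Both tables hold the authors' deposited normalized counts, a signal per gene equal to its read count divided by 1 size factor per library. In every library 100% of values were whole multiples of 1 step (tolerance 0.001), so reads were recovered. The main test used log2(normalized count + 1), limma 3.58.1 (trend) with 5 group means in R 4.3.3, mouse genes with a mean of at least 10, and Benjamini-Hochberg adjustment. edgeR 4.0.16 on recovered reads called 82 genes for the nintedanib main effect and limma 71. Alternatives were DESeq2 1.42.0, TMM scaling, scaling without Rn45s and Lars2, other pseudocounts and filters, a replicate block and leaving out libraries. Correlations used 100000 permutations. The fit was tested on simulated data. Same-numbered tumours did not deviate together (5 of 29 pairs over 0.1), so numbers were not taken as pairs. No 2 libraries of a group agreed within sampling noise (lowest chi-square per gene 13.46).

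The members and the marker lists were chosen with earlier results of these data known. Named were all 7 members, list genes past the threshold or otherwise up to 4 per list with the smallest p, markers near 0, the 10 genes most like the 6 members and the 5 most like Kit, and the human genes of the same names. Mouse gene positions and sequences were not used here.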

Additional observations from a re-analysis of the deposited data

Results flagged for a closer look

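In 25 groups of 4 or 5 tumours tested for a single outlying value (members by treatment group), 2 held one, and chance alone flags about 1 in 20 groups. Cpa3 in nintedanib responder 3 had a normalized count of 45.2, the highest of the 5 nintedanib tumours, with a gap to the next of 0.815 of the group's range. Hdc in nintedanib responder 1 had a normalized count of 219, with a gap of 0.728 of the range. Without responder 3 the nintedanib main effect on Cpa3 was 1.66 (log2 scale).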

How the results depend on the processing

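The alternatives were planned, except those for Btk, Angpt2 and the 4 endothelial genes and the correlations without vehicle 2, which were added after seeing the data. The count of members past the threshold stayed at 0 in every setting and comparison but the nintedanib main effect. There it was 2 with DESeq2 (Tpsb2 1.681 and Kit -0.739), 1 with the replicate block (Cpa3 2.02, adjusted p = 0.047) and 0 to 2 with a library left out (Kit without vehicle 2, Tpsb2 and Cpa3 without vehicle 4). Cpa3 passed the filter through the exposed tumours, and without the filter it was not called (adjusted p = 0.198). The block changed no other call of a member. The replicate numbers did not pair the tumours: 2 of 17 correlated best with a tumour of their own number. Kit and Hdc alone remained with a minimum mean of 50, so counts of members are lower there by construction, and Ms4a2 entered only without the filter. Low read numbers limit Cpa3, Tpsb2 and Ms4a2 most. Scaling to the mouse reads left without Rn45s and Lars2 put the median of all tested genes at -0.305 for the combination against vehicle, -0.187 for alpelisib against vehicle, -0.201 for the alpelisib main effect and -0.186 for the combination against nintedanib.

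Members at an unadjusted p under 0.05 were as follows. For nintedanib against vehicle there were 2 in edgeR, 2 in DESeq2, 1 with a minimum mean of 50 and 2 to 5 with a library left out. For the combination against vehicle there were 1 in edgeR, in DESeq2 and with a pseudocount of 5, 0 with a minimum mean of 50, 4 without the 4 libraries richest in Rn45s and Lars2 reads, and 1 to 4 with a library left out. For the combination against alpelisib there was 1 with a minimum mean of 50 and 1 to 2 with a library left out. For the nintedanib main effect there was 1 with a minimum mean of 50 and 3 to 5 with a library left out. Responders against non-responders gave 1 without the filter. With a library left out, alpelisib against vehicle, the alpelisib main effect, the departure from additivity and responders against non-responders gave 0 to 1 each.

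Counts over all tested mouse genes were higher in DESeq2: 88 for alpelisib against vehicle, 93 for nintedanib, 469 for the combination, 22 for the combination against alpelisib, 30 against nintedanib, 282 for the alpelisib and 254 for the nintedanib main effect, and 2 for responders. Scaling without Rn45s and Lars2 gave 7 for alpelisib, 304 for the combination and 153 for the alpelisib main effect. Without the filter they were 10 for nintedanib, 47 for the combination, 1 for the combination against nintedanib and 0 for the alpelisib main effect. With a minimum mean of 50 they were 7 for nintedanib, 60 for the combination, 0 against alpelisib and 42 for the nintedanib main effect. The replicate block gave 10 for nintedanib, 46 for the combination, 0 against alpelisib and 0 for the alpelisib main effect. Without the 4 libraries richest in Rn45s and Lars2 reads they were 2 for nintedanib, 22 for the combination, 0 against alpelisib, 3 against nintedanib and 1 for the nintedanib main effect. With a library left out they ran from 0 to 1 for alpelisib, 4 to 33 for nintedanib, 5 to 130 for the combination, 0 to 13 against alpelisib, 0 to 4 against nintedanib, 0 to 43 for the alpelisib and 40 to 115 for the nintedanib main effect.

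Some estimates that passed no threshold changed sign, and the cause was not tested. In edgeR and DESeq2 these were Mcpt4 (-0.199 and -0.145) and Cma1 (-0.009 and -0.033) under alpelisib and Mcpt4 in the alpelisib main effect (-0.306 and -0.272). Scaling without Rn45s and Lars2 turned Hdc in the combination (-0.195), Tpsb2 (-0.161) and Kit (-0.122) against nintedanib, and Mcpt4 (-0.162) and Kit (-0.006) in the alpelisib main effect. Mcpt4 there was -0.176 with a pseudocount of 5 and -0.125 with the block. The block also turned Tpsb2 against nintedanib (-0.153), Cpa3 in the departure from additivity (-0.197), and Cpa3 (-0.074) and Cma1 (-0.242) between responders and non-responders. Without the 4 libraries richest in Rn45s and Lars2 reads, Hdc was 0.21 under alpelisib, -0.164 under the combination and -0.373 against alpelisib. In the same setting Cpa3, Mcpt4 and Cma1 were 0.407, 0.359 and 0.49 against nintedanib, and Cpa3 and Cma1 were 0.132 and 0.654 in the alpelisib main effect. With group means removed, r with Kit was 0.129 for Tpsb2, 0.572 for Cpa3 (0.339 without vehicle 2) and 0.159 for Hdc. Without the 2 tumours farthest from the median it was -0.089 for Mcpt4 and -0.372 for Cma1.

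With a library left out, the ranges that crossed 0 were, under alpelisib, Cpa3 -0.928 to 0.341, Mcpt4 -0.476 to 1.582, Cma1 -0.354 to 0.81 and Hdc -0.181 to 0.239. Hdc ran from -0.089 to 0.369 under the combination and from -0.085 to 0.373 against alpelisib. Against nintedanib Tpsb2 ran from -0.318 to 0.317, Cpa3 from -0.417 to 0.209 and Kit from -0.107 to 0.227. In the alpelisib main effect Cpa3 ran from -0.52 to 0.114, Mcpt4 from -0.628 to 0.401 and Cma1 from -0.439 to 0.144. In the departure from additivity Cpa3 ran from -0.453 to 0.816 and Kit from -0.46 to 0.027. Between responders and non-responders Cpa3 ran from -0.09 to 0.893, Cma1 from -0.192 to 0.349 and Hdc from -0.392 to 0.505. In the nintedanib main effect no member changed sign in any setting.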
